A study of Mus musculus with 4 samples.

Results

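Proteasome genes were followed across the cells sorted from a mouse melanoma. Of 33696 genes counted, 51 had a symbol made of Psma, Psmb, Psmc, Psmd, Psme, Psmf or Psmg and a digit. These were taken as the proteasome genes. The rule reads the symbol and no measured value, but it was chosen with earlier results of these data known. Of the 51 genes, 48 encode a subunit, an activator, an inhibitor or an assembly chaperone of the proteasome. The other 3 match by name only. They are Psmc3ip, a factor of meiotic recombination, Psme3ip1, a partner protein of PA28 gamma, and Psme2b, a near copy of Psme2. These 3 were kept out of all sums but stayed in the counts of genes past a fold and in the median folds. Reads of Psme2 and Psme2b may have been split between the copies, so the values of both are uncertain.

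The cells came from tumors of B16-F1-OVA, a melanoma line that carries ovalbumin, which grew for 14 days in the peritoneum of C57Bl/6 mice bred as Cxcl13-cre-tdTomato X R26R-eGFPflox. The Cxcl13 promoter drives tdTomato and Cre in these mice, and Cre opens the eGFP gene for good, so tdTomato marks cells with the promoter active at harvest and eGFP marks cells in which Cre acted at some time. Cells with high podoplanin (PDPN) and without CD45 or CD31 had been sorted into 4 populations, namely tdTomato-neg eGFP-neg (double-negative below), tdTomato+ eGFP-neg, tdTomato+ eGFP+ and tdTomato-neg eGFP+, all from mice with both transgenes and the same tumor line. Each population was 1 library, and how many animals were pooled in it is not given in the sources used here. A cell without eGFP lacks recombination, which does not show that its promoter was never active.

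The proteasome cuts proteins that carry ubiquitin chains into short peptides. Its 20S core is a barrel of Psma and Psmb subunits, and the catalytic sites sit in Psmb5, Psmb6 and Psmb7. Interferon-gamma is known to induce Psmb8, Psmb9 and Psmb10, which take the places of Psmb5, Psmb6 and Psmb7 in newly built cores (the immunoproteasome), together with Psme1 and Psme2, the alpha and beta subunits of the PA28 cap. The peptides made this way are loaded on MHC class I molecules. The Psmc and Psmd subunits form the 19S cap, which binds, unfolds and feeds in ubiquitinated proteins, and Psmg proteins help to assemble the core.

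Transcripts were counted by unique molecular identifiers (UMIs) at the 3′ end, so gene length does not enter the levels, which are given as UMIs per 1000000 (CPM) summed over cells. The 4 libraries held 984 to 11745 barcodes and 10071954 to 90259852 UMIs, and 22691 of 24489 barcodes had 500 to 6000 genes and at most 10% mitochondrial UMIs. There were 57 barcodes found in more than 1 library, 49 among the kept cells. Of the kept cells 21474 (94.6%) fell in clusters that express collagen, and their median depth was 5393 UMIs in the double-negative library and 8318 to 9094 UMIs in the others. In these cells Cxcl13 reached 227 CPM in the double-negative library, 2191 CPM in tdTomato+ eGFP-neg, 1112 CPM in tdTomato+ eGFP+ and 198 CPM in tdTomato-neg eGFP+, Pdpn lay between 222 and 321 CPM, and Ptprc (CD45) and Pecam1 (CD31) were at most 0.851 and 3.83 CPM. Since a population was a single library, its values have no replicate check, and intervals in parentheses are 95% counting intervals that do not cover differences between animals or libraries.

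The collagen-expressing cells were clustered without the proteasome, MHC class I, interferon and sex-linked genes and gave 7 classes. They were matrix fibroblast-like cells (3500), cycling collagen-high cells (1186), Serpinb2/Ereg-high cells (4649), cycling collagen-low cells (4520), mesothelial-like cells (3527) and the clusters led by Nebl and Cd55b (2249 cells) and by Inmt and Efhd1 (1843 cells). The Inmt/Efhd1 cluster had 13339 CPM of universal fibroblast markers, Pi16 and Dpp4 among them, against 2427 CPM in matrix fibroblast-like cells, the next class. The Inmt/Efhd1 cluster was left unnamed because its median of 1740 UMIs was 0.301 times that of its own libraries, and 94.5% of it came from the double-negative library. The other 6 classes had medians from 5084 UMIs in mesothelial-like to 10854 UMIs in cycling collagen-low cells. The classes also differed in sex marks. Among cells with Xist or a Y-linked transcript but not both, 15.8% of the Nebl/Cd55b, 53.5% of the matrix fibroblast-like and 98.6% of the Inmt/Efhd1 cells were Xist-only. Outside the collagen-expressing cells lay 622 melanoma-like cells and 595 immune-like cells, the latter led by immunoglobulin genes. Immune-like cells had 14435 CPM of 6 collagens, near the 14693 CPM of cycling collagen-low cells. The collagen-expressing classes ran from 4829.5 CPM in the Inmt/Efhd1 cluster to 34871 CPM in matrix fibroblast-like cells. The part of RNA from collagen-expressing cells in the values of immune-like cells was not tested.

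The promoters of 4 genes on which the results turn are shown first, Psmb8, Psmb9 and Psme1 for the induced group and Psmb5 for the constitutive core. Each run covers 250 bases before and 50 bases after the transcription start and was taken from RefSeq on GRCm38.p6, a build other than that of the counts. Capitals mark a match, on either strand, to TTCNNNGAA (the GAS element of interferon-gamma response) in Psmb8, to TTTC, any 2 bases and TTTC again (the ISRE element bound by interferon regulatory factors) in Psme1, and to TGACNNNGC (the antioxidant response element) in Psmb5. Psmb9 matched none of the 3 and is in lower case.
Psmb8, chr17:34197945-34198244, plus strand: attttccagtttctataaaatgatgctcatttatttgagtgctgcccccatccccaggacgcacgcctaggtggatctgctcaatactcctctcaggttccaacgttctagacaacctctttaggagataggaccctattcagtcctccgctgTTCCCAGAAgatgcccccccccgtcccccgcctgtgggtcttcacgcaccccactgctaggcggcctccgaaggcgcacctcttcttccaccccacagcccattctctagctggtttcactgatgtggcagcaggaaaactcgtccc
Psmb9, chr17:34187281-34187580, minus strand: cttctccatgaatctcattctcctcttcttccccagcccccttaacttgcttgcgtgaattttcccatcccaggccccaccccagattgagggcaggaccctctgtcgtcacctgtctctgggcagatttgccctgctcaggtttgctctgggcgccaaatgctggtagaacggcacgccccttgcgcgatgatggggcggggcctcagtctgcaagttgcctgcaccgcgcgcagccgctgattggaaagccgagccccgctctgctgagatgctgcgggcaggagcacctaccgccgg
Psme1, chr14:55578244-55578543, plus strand: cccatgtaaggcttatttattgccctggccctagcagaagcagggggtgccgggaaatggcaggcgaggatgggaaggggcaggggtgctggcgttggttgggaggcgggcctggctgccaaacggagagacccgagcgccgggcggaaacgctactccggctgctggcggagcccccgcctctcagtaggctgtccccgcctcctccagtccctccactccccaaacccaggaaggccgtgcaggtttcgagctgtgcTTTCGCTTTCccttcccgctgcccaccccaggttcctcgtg
Psmb5, chr14:54617946-54618245, minus strand: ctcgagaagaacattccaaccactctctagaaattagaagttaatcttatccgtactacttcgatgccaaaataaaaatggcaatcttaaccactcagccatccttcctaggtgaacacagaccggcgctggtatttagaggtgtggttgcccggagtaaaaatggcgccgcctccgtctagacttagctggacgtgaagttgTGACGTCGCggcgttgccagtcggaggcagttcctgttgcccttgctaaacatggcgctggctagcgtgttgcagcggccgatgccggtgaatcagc

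The match in Psmb8 began 97 bases before the start, that in Psmb5 47 bases before it, and that in Psme1 9 bases after it. RefSeq gave 47 promoters for 43 of the 51 genes, and Psma8, Psmb1, Psmb2, Psmb7, Psmc3, Psmd3, Psmd7 and Psmg2 had no entry. The ISRE letters occurred in 5 of the 47 promoters (10.6%, against 3.44% of 32851 promoters of all genes), those of Psmb3, Psmd4, Psmd9, Psme1 and Psmg4. The GAS letters occurred in 3 (6.38%, against 8.30%), those of Psmb8, Psmd2 and Psmg1. The antioxidant letters occurred in 6 (12.8%, against 12.4%), those of Psmb5, Psmb6, Psmc6, Psmd9, Psmd12 and Psme4. The Psmb9 window shared 275 bases with that of Tap1, the peptide transporter gene that is read in the other direction. A match of letters is a description of the sequence and not a site of binding.

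In every population the immune catalytic subunits outnumbered the constitutive ones at the RNA level. Over collagen-expressing cells Psmb8, Psmb9 and Psmb10 together had 1183 CPM in the double-negative library, 1330.1 CPM in tdTomato+ eGFP-neg, 1406 CPM in tdTomato+ eGFP+ and 1501 CPM in tdTomato-neg eGFP+ cells. Psmb5, Psmb6 and Psmb7 together had 638, 576, 582 and 649 CPM in the same order. The ratio of the immune to the constitutive sum was therefore 1.86 (1.84 to 1.88) in the double-negative library, 2.31 (2.28 to 2.34) in tdTomato+ eGFP-neg, 2.42 (2.34 to 2.50) in tdTomato+ eGFP+ and 2.31 (2.28 to 2.34) in tdTomato-neg eGFP+. The double-negative library stood below the other 3, whose intervals met or overlapped.

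The 3 pairs that exchange places did not carry this difference alike. Psmb8, the immune form of the chymotrypsin-like site, had 643, 703, 743 and 805 CPM in the double-negative, tdTomato+ eGFP-neg, tdTomato+ eGFP+ and tdTomato-neg eGFP+ libraries, and its constitutive partner Psmb5 had 299, 237, 262 and 287 CPM. Their ratio was 2.15 (2.12 to 2.18) in the double-negative library and 2.80 (2.75 to 2.85) to 2.97 (2.90 to 3.03) in the others. Psmb9 had 277, 336, 382 and 377 CPM and its partner Psmb6, the caspase-like site, 254, 227, 229 and 254 CPM, a ratio of 1.09 (1.07 to 1.11) in the double-negative library against 1.48 (1.44 to 1.52), 1.67 (1.58 to 1.76) and 1.48 (1.45 to 1.52). The trypsin-like pair behaved otherwise: Psmb10 had 263, 291, 281 and 319.7 CPM and Psmb7 85.0, 112, 91.1 and 108 CPM. Their ratio was lowest in tdTomato+ eGFP-neg, 2.60 (2.52 to 2.69). It was 3.10 (3.01 to 3.19) in the double-negative library, 3.09 (2.85 to 3.35) in tdTomato+ eGFP+ and 2.96 (2.87 to 3.05) in tdTomato-neg eGFP+, with overlapping intervals. Psmb7 was the least abundant of the 6 catalytic subunits in every library and Psmb8 the most abundant.

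The ratio differed more between cell classes than between populations. It was 1.37 (1.35 to 1.40) in matrix fibroblast-like and 1.48 (1.44 to 1.52) in cycling collagen-high cells, the classes richest in collagen. It reached 2.04 (1.92 to 2.16) in the Inmt/Efhd1 cluster, 2.21 (2.18 to 2.23) in cycling collagen-low, 2.33 (2.30 to 2.37) in Serpinb2/Ereg-high, 2.39 (2.33 to 2.44) in Nebl/Cd55b and 2.61 (2.57 to 2.66) in mesothelial-like cells. With the libraries summed, intervals of neighbours in this order overlapped only for Serpinb2/Ereg-high and Nebl/Cd55b cells. The middle of the order was not apart within the double-negative library. There the Inmt/Efhd1 cluster had 2.05 (1.93 to 2.19) and cycling collagen-low cells 2.07 (2.03 to 2.12). Serpinb2/Ereg-high cells had 2.13 (2.04 to 2.21) and Nebl/Cd55b cells 2.14 (2.05 to 2.23), with overlapping intervals. In tdTomato-neg eGFP+ the Inmt/Efhd1 cluster, with 66 cells, had 1.32 (0.929 to 1.87). Melanoma-like cells, at 0.665 (0.644 to 0.687), were the class in which the constitutive subunits outnumbered the immune ones, and immune-like cells, at 2.42 (2.31 to 2.52), lay among the upper classes. Matrix fibroblast-like and mesothelial-like cells were the ends of the order among collagen-expressing classes in cells of either sex mark too: Xist-only cells gave 1.46 in matrix fibroblast-like and 2.98 in mesothelial-like cells, and Y-only cells 1.24 and 2.44.

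**Figure D1:**
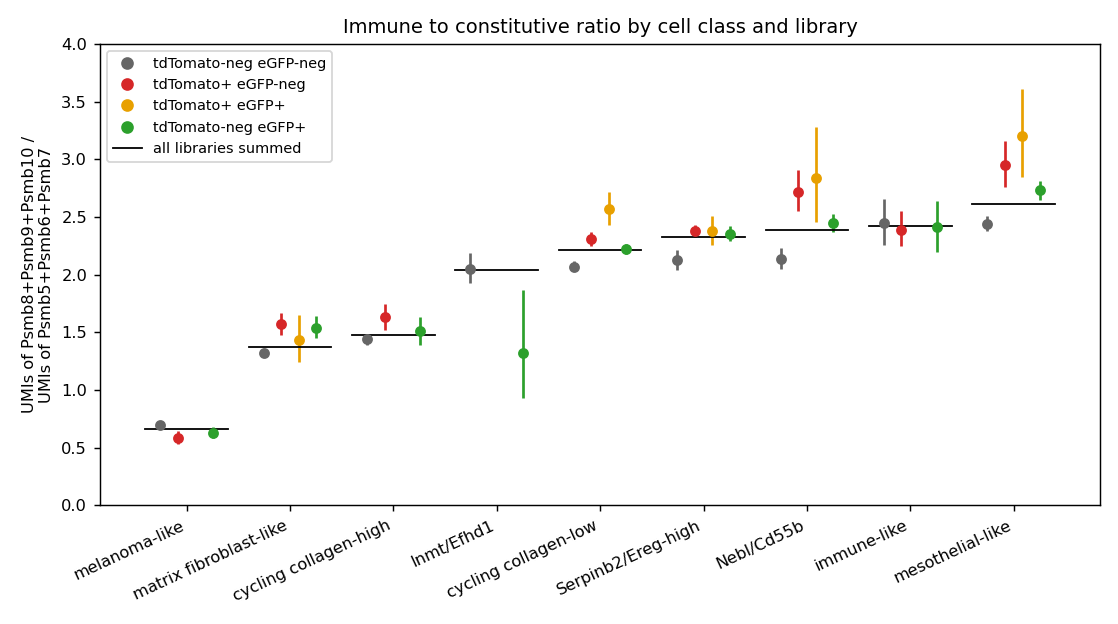
Ratio of the UMIs of Psmb8, Psmb9 and Psmb10 to those of Psmb5, Psmb6 and Psmb7 (vertical axis) in each cell class (horizontal axis). Points are libraries with at least 50 cells of the class, with 95% counting intervals, and black bars give the 4 libraries summed; matrix fibroblast-like cells sit at 1.37, mesothelial-like cells at 2.61 and melanoma-like cells below 1, at 0.665.

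Among the collagen-expressing classes Psmb5 ran from 179 CPM in the Inmt/Efhd1 cluster through 235 in Serpinb2/Ereg-high, 240.2 in Nebl/Cd55b, 264 in matrix fibroblast-like, 293 in cycling collagen-high and 309 in cycling collagen-low to 353 CPM in mesothelial-like cells. Psmb8 ran from 402 CPM in the Inmt/Efhd1 cluster through 427 in matrix fibroblast-like, 525 in cycling collagen-high, 677 in Serpinb2/Ereg-high, 736 in Nebl/Cd55b and 831 in cycling collagen-low to 1013 CPM in mesothelial-like cells. Psmb6 lay between 165 and 278 CPM and Psmb9 between 168 and 472 CPM, with the Inmt/Efhd1 cluster lowest and mesothelial-like cells highest for both. Psmb10 lay between 198 CPM in cycling collagen-high and 406 CPM in mesothelial-like cells. Psmb7 was highest in cycling collagen-low cells, at 120.4 CPM, and lowest in the Inmt/Efhd1 cluster, at 51.3 CPM.

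The pairs also differed between classes. Psmb8 to Psmb5 was lowest among collagen-expressing classes in matrix fibroblast-like cells, at 1.62 (1.57 to 1.67), and highest in Nebl/Cd55b cells, at 3.06 (2.96 to 3.17). Psmb9 to Psmb6 went from 0.715 (0.689 to 0.742) in matrix fibroblast-like to 1.70 (1.64 to 1.75) in mesothelial-like cells. Psmb10 to Psmb7 was 2.09 (1.96 to 2.24) in cycling collagen-high cells but 4.42 (4.20 to 4.64) in mesothelial-like cells and 4.57 (3.92 to 5.34) in the Inmt/Efhd1 cluster, whose intervals overlapped. Matrix fibroblast-like and cycling collagen-high cells were the collagen-expressing classes with more Psmb6 than Psmb9.

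The 2 ends of the order of the summed ratio were apart within each library as well. Mesothelial-like cells had a higher ratio than matrix fibroblast-like cells in each of the 4 libraries, 2.44 against 1.32, 2.95 against 1.57, 3.20 against 1.43 and 2.73 against 1.54 in the order double-negative, tdTomato+ eGFP-neg, tdTomato+ eGFP+ and tdTomato-neg eGFP+. As log2 differences these were 0.88 (0.83 to 0.94), 0.91 (0.78 to 1.04), 1.16 (0.90 to 1.43) and 0.83 (0.73 to 0.92), and 0.93 (0.89 to 0.97) with the libraries summed. Serpinb2/Ereg-high cells lay above matrix fibroblast-like cells by 0.60 to 0.74 in the 4 libraries, cycling collagen-low cells by 0.53 to 0.84 and Nebl/Cd55b cells by 0.67 to 0.99. Cycling collagen-high cells differed little, by 0.12 (0.06 to 0.17), 0.05 (-0.08 to 0.19) and -0.03 (-0.17 to 0.11) in the 3 libraries with enough cells.

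Psmb9 and Psmb8 had the largest folds of the 6 catalytic subunits in the comparison of mesothelial-like with matrix fibroblast-like cells. In mesothelial-like cells Psmb8 had 958, 1047, 1046 and 1072 CPM in the 4 libraries in the order above, and in matrix fibroblast-like cells 423, 395, 435 and 493 CPM, so the ranges did not overlap. Psmb9 had 436, 478, 616 and 506 CPM against 167, 199, 231 and 207 CPM, and Psmb10 376, 417, 371 and 443 CPM against 198, 205, 184 and 234 CPM. With libraries summed Psmb8 differed by 1.25 (1.21 to 1.28) on the log2 scale, Psmb9 by 1.42 (1.37 to 1.47) and Psmb10 by 1.00 (0.96 to 1.05). The constitutive partners differed less, Psmb5 by 0.42 (0.37 to 0.47), Psmb6 by 0.18 (0.12 to 0.23) and Psmb7 by 0.27 (0.18 to 0.36). For Psmb7 the libraries did not share a direction, with 0.29, -0.02, -0.30 and 0.24 in the 4 libraries, and the unweighted mean of the libraries gave 0.04.

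PA28 alpha and beta, which open the core from its ends, followed the immune subunits between mesothelial-like and matrix fibroblast-like cells but not between populations. Psme1 had 927, 767, 869.7 and 852 CPM in mesothelial-like cells of the 4 libraries and 362, 277, 303 and 342 CPM in matrix fibroblast-like cells. Psme2 had 797, 674, 844 and 764 CPM against 377, 293, 333 and 343 CPM. Both ranges were apart, and the summed libraries differed by 1.34 (1.30 to 1.38) for Psme1 and 1.10 (1.06 to 1.13) for Psme2 on the log2 scale. Over all collagen-expressing cells, by contrast, Psme1 was lowest in the tdTomato+ eGFP-neg library, at 466 CPM, against 557 in the double-negative, 514 in the tdTomato+ eGFP+ and 571 CPM in the tdTomato-neg eGFP+ library, and Psme2 had 440.3 CPM there against 507, 510.4 and 520.4 CPM. Within classes Psme1 was below the double-negative cells in all 18 comparisons of a population and a class, by 0.08 to 0.53 on the log2 scale, and Psme2 in 17 of them.

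**Figure D2:**
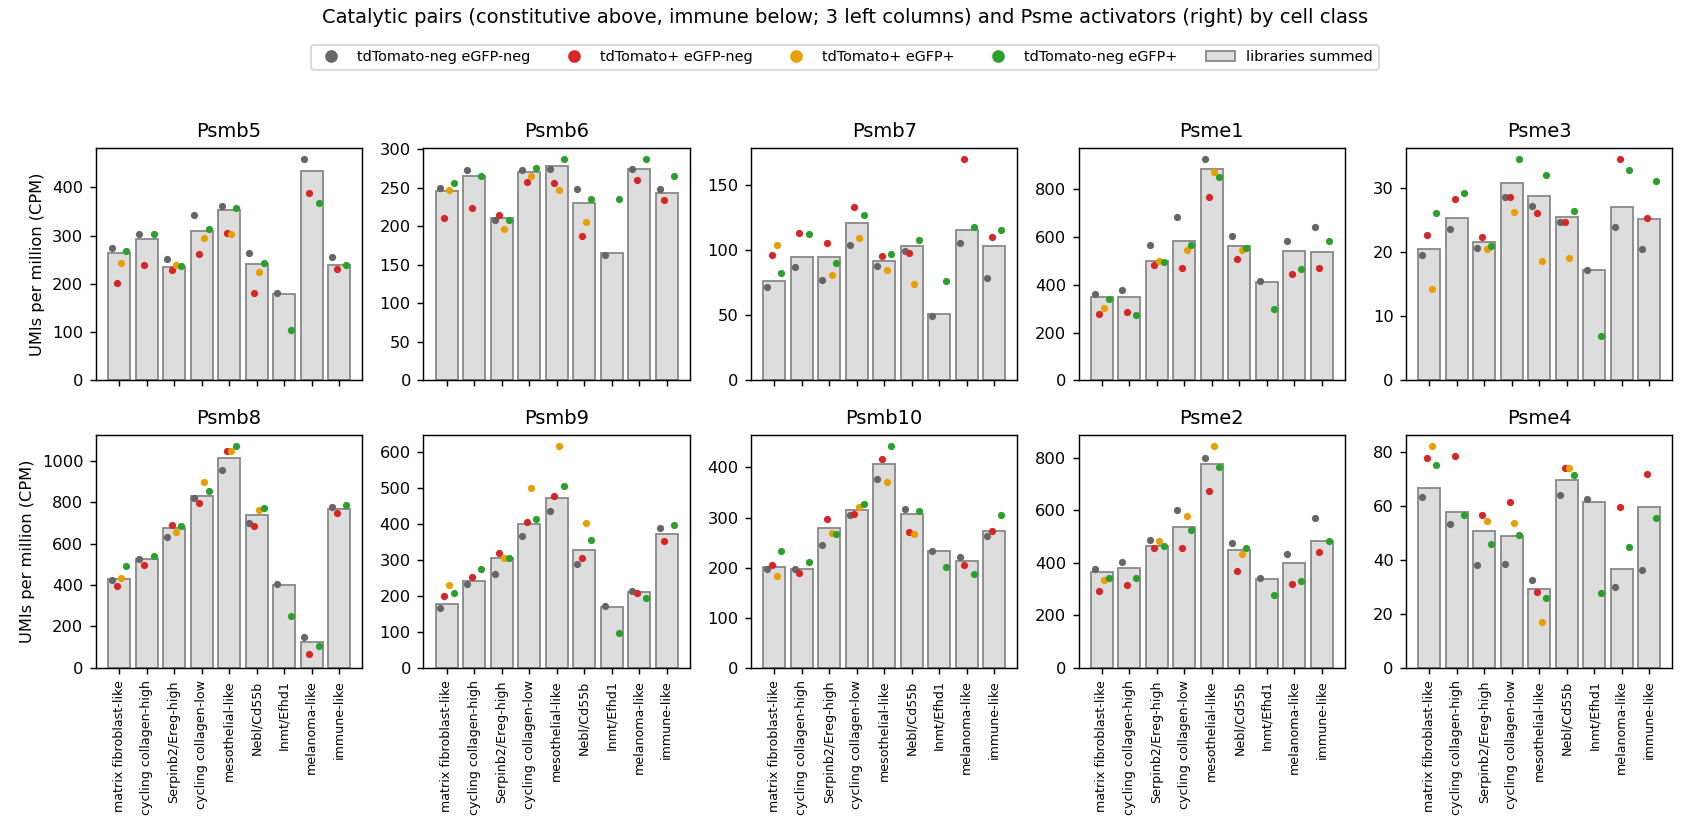
CPM (vertical axes, from 0) of the constitutive subunits Psmb5, Psmb6 and Psmb7, the immune subunits Psmb8, Psmb9 and Psmb10 and the activators Psme1 to Psme4 in each cell class. Grey bars are the libraries summed and points the libraries with at least 50 cells; the bars of Psmb8, Psmb9, Psmb10, Psme1 and Psme2 were highest in mesothelial-like cells, and that of Psme4 lowest there.

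The remaining activators were far less abundant and had patterns of their own. Psme3 (PA28 gamma, a nuclear cap) had 23.6, 24.7, 22.1 and 29.0 CPM in the 4 libraries and 17.2 CPM in the Inmt/Efhd1 cluster to 30.7 CPM in cycling collagen-low cells among the collagen-expressing classes. Psme4 (PA200, a cap linked to histone turnover) was lower in mesothelial-like than in matrix fibroblast-like cells, at 29.2 against 66.8 CPM, a log2 difference of -1.20 (-1.33 to -1.06). In the 4 libraries it had 32.7, 28.3, 16.9 and 25.8 CPM in mesothelial-like and 63.4, 78.0, 82.4 and 75.5 CPM in matrix fibroblast-like cells. The ranges were apart, and the log2 difference ran from -0.96 in the double-negative to -2.28 in the tdTomato+ eGFP+ library, where the mesothelial-like value rests on 10 UMIs. Psme4 was also high in the Nebl/Cd55b cluster, at 69.8 against 50.9 CPM in the other collagen-expressing cells, a log2 difference of 0.45 with the same sign in each of the 4 libraries.

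The whole set was then compared between mesothelial-like and matrix fibroblast-like cells, calling a gene higher or lower past a log2 fold of 0.25, the study's threshold, where it had at least 100 UMIs over both sides. Of 49 genes that met the minimum, 32 were higher and 1, Psme4, was lower. The 32 included Psme2b (14.2 against 5.63 CPM) and Psmc3ip (8.55 against 4.77 CPM), which match by name only. Among 11630 genes of all kinds 30.0% were called higher and 40.2% lower in this comparison, and the median log2 fold was 0.31 for the proteasome genes and -0.07 for all genes. Of the 32 genes, 28 had a value in every library, and 25 of these had the same sign in all 4. Psma8 and Psmb11, the alpha subunit of testis and the beta subunit of the thymus, did not meet the minimum and had 28 and 5 UMIs in all collagen-expressing cells.

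By role, 6 of 7 alpha subunits were higher in mesothelial-like cells, among them Psma7 (847 against 522 CPM, log2 fold 0.70), Psma1 (162 against 107 CPM, 0.60) and Psma6 (243 against 166 CPM, 0.54), while Psma3 had 422 against 423 CPM. Of the 4 structural beta subunits 3 were higher, with Psmb3 (473 against 361 CPM, 0.39) first. The 19S cap moved less: 5 of 6 ATPases were higher, led by Psmc1 (81.1 against 54.1 CPM, 0.58), but 4 of 11 non-ATPase subunits, led by Psmd8 (168 against 115 CPM, 0.54). Of 7 assembly chaperones 3 were higher, Psmg4 (143 against 81.6 CPM, 0.81), Psmg3 (34.1 against 21.6 CPM, 0.66) and Psmd10 (46.7 against 34.5 CPM, 0.44), and Psmf1, the inhibitor PI31, had 18.4 against 14.2 CPM (0.38).

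Genes outside the group were read from 3 lists. Of 12 MHC class I presentation genes 7 were higher in mesothelial-like cells and 1 lower, with a median log2 fold of 0.65. Tapbpl, a peptide editor, had 35.2 against 15.5 CPM (1.18), H2-K1, a class I heavy chain, 3154 against 1626 CPM (0.96), Tap1 143 against 75.3 CPM (0.92), and the chaperone Pdia3 991 against 1204 CPM (-0.28). Of 16 interferon signalling genes 5 were higher and 7 lower, close to the 30.0% and 40.2% of all genes. The higher ones included the induced genes Gbp2 (866 against 166 CPM, 2.38) and Irf7 (344 against 99.9 CPM, 1.78), and the lower ones the kinases Jak1 (117 against 332 CPM, -1.50) and Jak2 (48.1 against 77.7 CPM, -0.69) and the receptor chain Ifngr1 (34.6 against 54.3 CPM, -0.65). Of 25 measured partners of the proteasome 5 were higher, among them Adrm1, a ubiquitin receptor of the cap (66.5 against 50.1 CPM, 0.41), and Pomp, which helps core assembly (345 against 273 CPM, 0.34), and 3 were lower, with Ecpas, an adaptor of the 26S proteasome, at 33.8 against 69.0 CPM (-1.03).

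In cycling collagen-low cells 24 of 49 genes were higher and 0 lower than in the other collagen-expressing cells (24.8% and 28.2% of all genes), with the same sign in each library for all 24. They included 5 of 6 ATPases (Psmc1 77.7 against 59.9 CPM, log2 fold 0.38), 7 of 11 non-ATPase subunits (Psmd12 163 against 128 CPM, 0.35) and 5 of 7 chaperones, led by Psmg2 (51.7 against 31.9 CPM, 0.70) and Psmg3 (36.1 against 25.4 CPM, 0.51). Psmb9 and Psmb8 were higher too, at 399 against 297 CPM (0.43) and 831 against 662 CPM (0.33). Psmc3ip, the recombination factor that shares only the name, had the largest fold, 24.9 against 6.95 CPM (1.84). Among partners, Uchl5, a deubiquitinase of the cap, had 46.8 against 20.1 CPM (1.21) and Akirin2, which carries proteasomes into the nucleus, 72.5 against 46.4 CPM (0.64).

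The second cycling class was set against matrix fibroblast-like cells, which share its collagen. Of 49 genes 14 were higher in cycling collagen-high cells and 0 lower (20.9% and 21.7% of all genes), all 14 with the same sign in the 3 libraries with enough cells. They included Psmg2 (44.4 against 31.2 CPM, log2 fold 0.51), Psmd9 (51.5 against 38.7 CPM, 0.41), Psmc4 (104 against 79.8 CPM, 0.39), Psmd14, the deubiquitinase of the cap (115 against 89.5 CPM, 0.37), Psmb9 (241 against 176 CPM, 0.46) and Psmc3ip (22.2 against 4.77 CPM, 2.22). Psme1 and Psme2 stayed within the fold, at 347 against 349 CPM and 379 against 363 CPM. Uchl5 and Akirin2 had log2 folds of 1.03 and 0.85 here. The median depth of both cycling classes, 10812 and 10854 UMIs, was above that of the other collagen-expressing classes, and the part of depth in these differences was not tested.

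Against all other collagen-expressing cells, mesothelial-like cells had 18 genes higher and 2 lower (20.4% and 47.2% of all genes), and cycling collagen-high cells 6 higher and 10 lower (27.3% and 31.5%). In the same comparison matrix fibroblast-like cells had 1 gene higher, Psme4, and 21 lower (26.6% and 34.4% of all genes), with Psmb9 (176 against 353 CPM, log2 fold -1.01), Psmb8 (427 against 761 CPM, -0.83) and Psme1 (349 against 569.9 CPM, -0.71) as the subunits with the lowest folds. In Serpinb2/Ereg-high cells, the class that made up 50.3% of tdTomato+ eGFP-neg but 6.64% of double-negative collagen-expressing cells, 1 gene, Psmd10 (49.9 against 41.5 CPM, log2 fold 0.27 but -0.07 within the tdTomato+ eGFP+ library), was higher and 23 were lower (15.3% and 38.6% of all genes). None of the immune subunits and PA28 genes was among the 23, whereas 5 of 6 ATPases (Psmc4 69.7 against 93.7 CPM, -0.43), 6 of 11 non-ATPase subunits (Psmd13 69.8 against 92.2 CPM, -0.40), 5 of 7 chaperones (Psmg2 26.3 against 41.5 CPM, -0.66), Psmb5 (235 against 293 CPM, -0.32) and Psmb6 (211 against 258 CPM, -0.29) were. All 23 had the same sign in the 4 libraries. Psmb8 had 677 CPM in this class, Psmb9 305 CPM and Psmb10 279 CPM, each below the value over all collagen-expressing cells, this class included, of 711, 327 and 288 CPM. Against matrix fibroblast-like cells, however, its immune sum was higher, at 1261 against 805 CPM. Its constitutive sum was lower, at 540.1 against 586 CPM, and its ratio was 2.33.

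The Nebl/Cd55b cluster was close to the others, with Psme4 higher and 5 genes lower (38.4% and 23.4% of all genes), namely Psmb3 (275 against 368 CPM, log2 fold -0.42), Psma3, Psma2, Psmg2 and Psmc3ip. The Inmt/Efhd1 cluster had 1 gene higher, Psme3ip1, and 38 lower (38.9% and 36.7% of all genes), including all 7 alpha subunits and all 6 catalytic subunits. Psmd10, the chaperone gankyrin, had 17.7 against 44.2 CPM (log2 fold -1.32), Psmb9 168 against 330.3 CPM (-0.97) and Psmb7 51.3 against 99.9 CPM (-0.96). These cells had the lowest depth, and the part of depth in the values was not tested. The 48 genes together made up 6280.4 CPM (6203 to 6359) in the Inmt/Efhd1 cluster, 7636 CPM in matrix fibroblast-like and 11166 CPM (11121 to 11211) in mesothelial-like cells. Without the immune subunits, Psme1 and Psme2 the sum ran from 4729 CPM through 6120.0 CPM to 7618 CPM in the same classes.

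**Figure D3:**
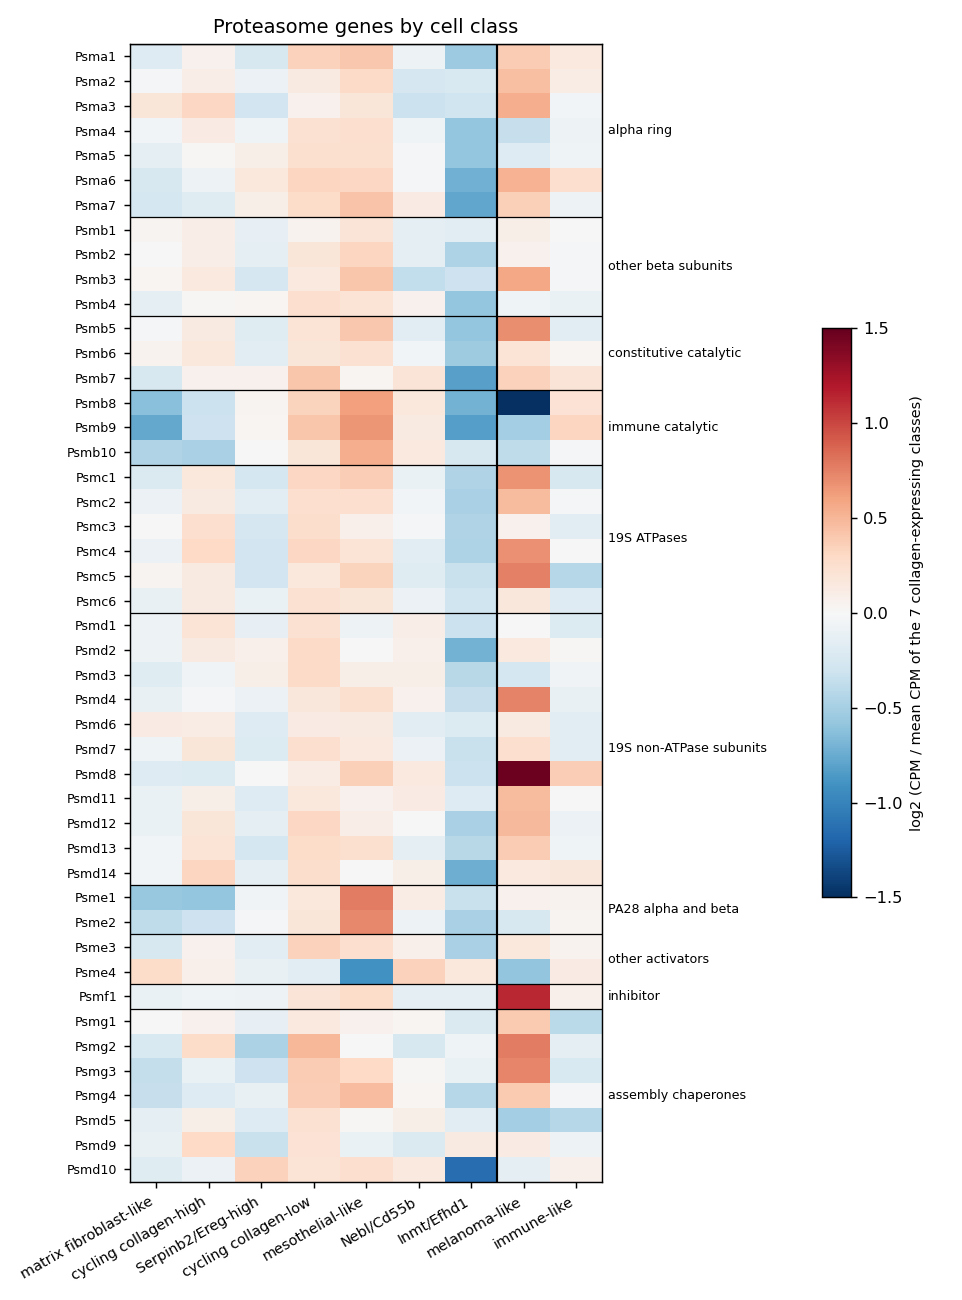
Log2 of the CPM of each of 46 proteasome genes (rows, by role) over the mean of the 7 collagen-expressing classes (colour), by cell class (columns). In cycling collagen-low cells 45 of 46 genes lie above the mean and in mesothelial-like cells 41, while 44 lie below it in the Inmt/Efhd1 cluster and 38 in matrix fibroblast-like cells; 1 value, in melanoma-like cells, passes the colour limit.

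Between populations the differences of single proteasome genes were small, and none of the 49 passed a log2 fold of 0.5 against the double-negative library. In tdTomato+ eGFP-neg cells 6 genes were higher and 5 lower, 12.2% and 10.2% of the 49 against 30.7% and 21.8% of all genes. The higher ones were Psmb7 (log2 fold 0.40), Psmd3 (0.37), Psmd2 (0.30), Psme4 (0.29), Psmb9 (0.28) and Psmd5 (0.26), and the lower ones Psmb5 (-0.34), Psmg2 (-0.34), Psmb3 (-0.33), Psma3 (-0.33) and Psme1 (-0.26). Of these, Psme4 was at 0.06, Psmb5 at -0.20 and Psme1 at -0.16 in Xist-only cells, and Psmb9 was at 0.17 with the classes weighted equally. That weighting took only classes with at least 50 cells in every library, so it left out cycling collagen-high and Inmt/Efhd1 cells. The median over the genes was -0.08, against 0.07 for all genes.

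In tdTomato+ eGFP+ cells, the smallest library, Psmb9 (0.46) and Psme2b (0.48) were higher and Psma3 (-0.32), Psmc5 (-0.30) and Psma1 (-0.29) lower, which is 4.08% and 6.12% of the genes against 18.8% and 26.5% of all genes. In tdTomato-neg eGFP+ cells 9 genes were higher and 0 lower, 18.4% and 0% against 27.5% and 17.5% of all genes. They were Psmb9 (0.44), Psmd3 (0.44), Psme2b (0.42), Psmb7 (0.35), Psmb8 (0.32), Psme3 (0.30), Psmb10 (0.28), Psmd2 (0.27) and Psmd5 (0.27). This was the one population with all 3 immune subunits past the fold. The classes with at least 50 cells in every library were also weighted equally. Psmb8 was then at 0.13, Psmb9 at 0.24, Psmb10 at 0.13 and Psmb7 at 0.20, all within the fold. Psme3 was at 0.10 in Y-only cells. The 3 comparisons share the double-negative library, so genes that recur in them are not independent.

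**Figure D4:**
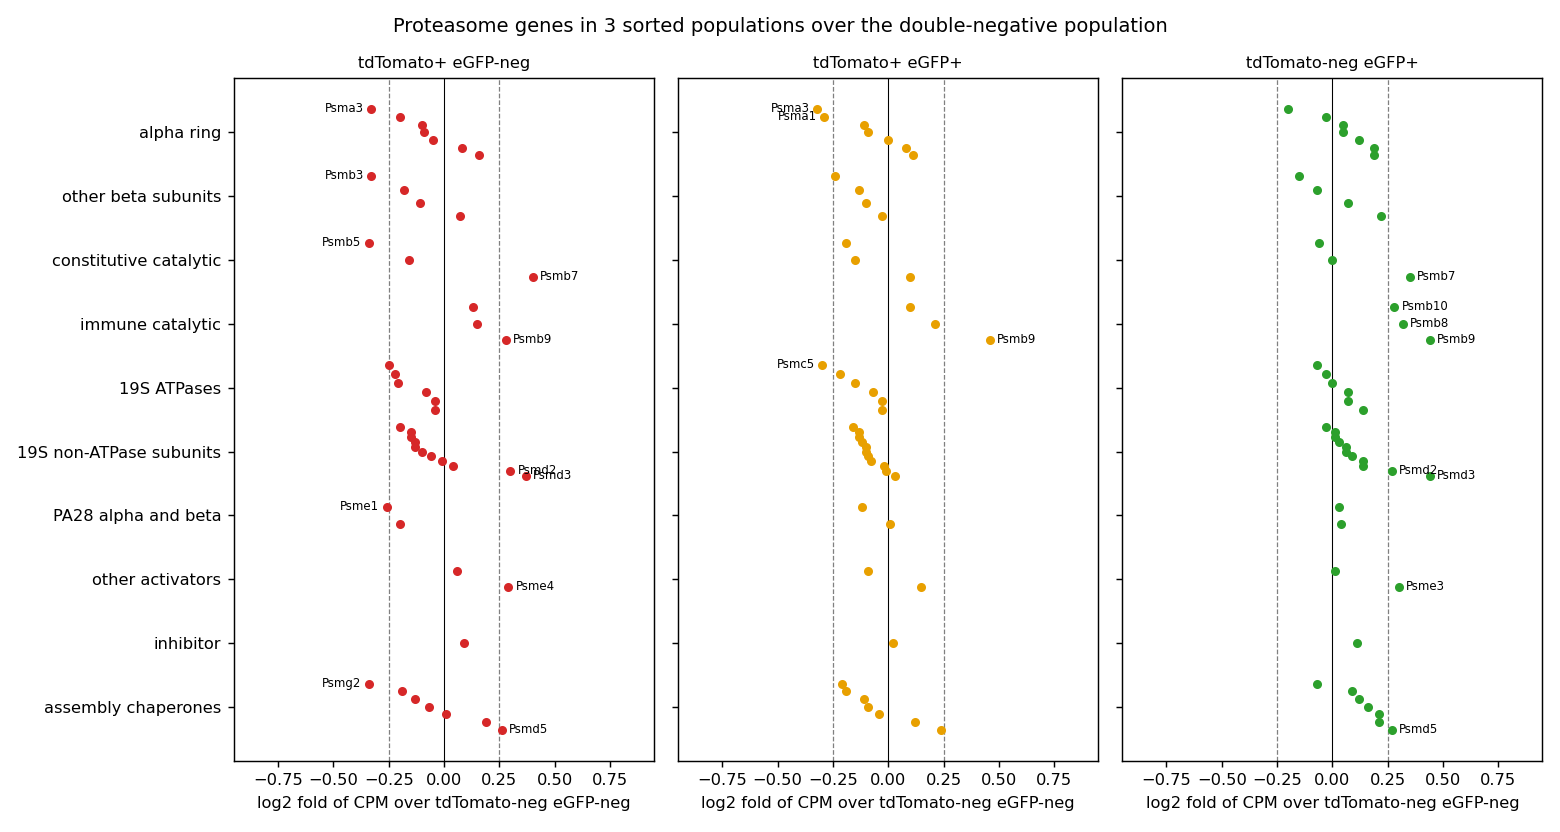
Log2 fold of CPM over the double-negative library (horizontal axes) for each proteasome gene (points, in rows by role) in collagen-expressing cells of the 3 other populations (panels). Psmb9 lies at 0.28, 0.46 and 0.44, and no gene passes 0.5 in size.

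The difference in the ratio was present within most classes, though smaller than over all cells in many. On the log2 scale the ratio over all collagen-expressing cells exceeded the double-negative library by 0.31 (0.29 to 0.34) in tdTomato+ eGFP-neg, 0.38 (0.33 to 0.43) in tdTomato+ eGFP+ and 0.32 (0.29 to 0.34) in tdTomato-neg eGFP+. Within classes of at least 50 cells the difference was 0.15 to 0.35 in the 6 classes of tdTomato+ eGFP-neg, 0.11 to 0.41 in the 5 classes of tdTomato+ eGFP+, and 0.07 to 0.22 in 6 of the 7 classes of tdTomato-neg eGFP+, where the Inmt/Efhd1 cluster, with 66 cells, was at -0.64 (-1.13 to -0.15). With classes of at least 50 cells in every library weighted equally the differences became 0.24, 0.29 and 0.16. That setting left out cycling collagen-high and Inmt/Efhd1 cells. The interval of 2 of these within-class values reached below 0, at 0.11 (-0.09 to 0.32) for matrix fibroblast-like cells of tdTomato+ eGFP+ and 0.07 (-0.05 to 0.19) for cycling collagen-high cells of tdTomato-neg eGFP+. After thinning to 1000 UMIs per cell the tdTomato+ eGFP+ value was 0.24. The share of Xist-only cells and the depth also differed between libraries and classes, and their part in the result was not tested beyond these values.

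Within classes Psmb9 was above the double-negative cells in nearly every class. It was so in 6 of 6 classes of tdTomato+ eGFP-neg, by 0.09 to 0.29 on the log2 scale, in 5 of 5 classes of tdTomato+ eGFP+, by 0.23 to 0.50, and in 6 of 7 classes of tdTomato-neg eGFP+. Psmb5 was below them in 6 of 6, 5 of 5 and 6 of 7 classes. In cycling collagen-low cells, for example, Psmb9 had 366 CPM in the double-negative library, 404 CPM in tdTomato+ eGFP-neg, 499 CPM in tdTomato+ eGFP+ and 412 CPM in tdTomato-neg eGFP+, and Psmb5 had 343, 262, 295 and 313 CPM. Psmb8 was above the double-negative cells in 2 of 6, 5 of 5 and 6 of 7 classes.

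Counts of genes past the fold within classes were, in the higher direction, a smaller share of the 42 to 49 genes tested than of all genes in each of the 18 comparisons. Here and in the comparisons above, all genes with at least 100 UMIs over both sides entered the share, many with fewer UMIs than most proteasome genes. Shares among genes of like abundance were not compared, so the part of abundance in this was not tested. In tdTomato+ eGFP-neg cells 8 proteasome genes were higher and 10 lower in matrix fibroblast-like cells (39.2% and 15.1% of all genes), 8 and 8 in cycling collagen-high (41.9% and 14.8%), 7 and 0 in Serpinb2/Ereg-high (47.2% and 10.1%) and 5 and 8 in cycling collagen-low cells (41.6% and 15.8%). Mesothelial-like cells had 4 higher and 13 lower (26.5% and 27.5%), a lower share near that of all genes, and Nebl/Cd55b cells 2 higher and 20 lower of 46 (29.6% and 21.0%). In tdTomato+ eGFP+ cells mesothelial-like and Nebl/Cd55b cells had 2 higher and 19 lower (22.6% and 34.0%) and 2 higher and 18 lower of 46 (21.6% and 34.5%). Matrix fibroblast-like cells of this population had 10 higher and 5 lower (29.5% and 32.0%), Serpinb2/Ereg-high 3 and 2 (32.2% and 15.6%) and cycling collagen-low cells 5 and 2 (29.2% and 18.8%).

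In tdTomato-neg eGFP+ cells the Inmt/Efhd1 cluster, with 66 cells, had 11 genes higher and 14 lower of 42 (31.2% and 32.5% of all genes). There were 5 higher and 3 lower in matrix fibroblast-like (28.7% and 17.4%), 4 and 2 in cycling collagen-high (32.3% and 17.2%), 4 and 0 in Serpinb2/Ereg-high (33.9% and 6.54%), 7 and 1 in cycling collagen-low (32.5% and 7.01%), 6 and 2 in mesothelial-like (20.6% and 15.9%) and 5 and 0 in Nebl/Cd55b cells (23.2% and 8.81%).

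The 3 lists of other genes were read in the same comparisons over all collagen-expressing cells. Of 12 MHC class I genes 9, 6 and 8 were higher and 0 lower in tdTomato+ eGFP-neg, tdTomato+ eGFP+ and tdTomato-neg eGFP+ cells, with medians of 0.47, 0.30 and 0.42. The shares of all genes in these comparisons were 30.7%, 18.8% and 27.5% higher and 21.8%, 26.5% and 17.5% lower. B2m, the light chain of class I, had 2576 CPM in the double-negative library and 4689, 4185 and 3520.3 CPM in the others. Of 16 interferon signalling genes 8, 7 and 5 were higher and 0, 0 and 3 lower. Of 25 partners, some of these counts being near the shares of all genes, 7, 4 and 2 were higher and 5, 9 and 3 lower.

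Melanoma-like cells, which express little collagen (1813 CPM of the 6 collagens) and 14314 CPM of 9 melanoma genes, differed from the collagen-expressing cells in both directions. Of 49 genes 21 were higher and 11 lower than in collagen-expressing cells (34.3% and 48.2% of all genes). Psmb8 was the most reduced, with 126 against 711 CPM, a log2 fold of -2.50. In the 3 libraries with at least 50 such cells it had 147 CPM (double-negative), 65.2 CPM (tdTomato+ eGFP-neg) and 104 CPM (tdTomato-neg eGFP+). The Inmt/Efhd1 cluster of tdTomato-neg eGFP+ had 249 CPM (175 to 345), on 36 UMIs. Every other collagen-expressing class with at least 50 cells in these libraries had 395 CPM or more. The fold of Psmb8 within libraries was -2.13, -3.43 and -2.95. Psmb5, the partner of Psmb8, was higher in melanoma-like cells, at 434 against 278 CPM (0.64), with 459, 387 and 368 CPM in the same libraries. Their ratio was 0.289 (0.272 to 0.307).

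The other immune subunits were reduced less in melanoma-like cells, Psmb9 to 209 against 327 CPM (log2 fold -0.65) and Psmb10 to 213 against 288 CPM (-0.44). In Xist-only cells Psmb10 was at -0.18, within the fold, and in Y-only cells Psmb9 was at -0.27 and Psmb8 at -1.62. Each of these sets of melanoma-like cells was under the minimum of 50 cells. The part of RNA from collagen-expressing cells in these values was not tested. Psme1 was close to its level in collagen-expressing cells, with 585, 443 and 467 CPM in the 3 libraries and a log2 fold of 0.02. Of the 19S cap, 4 of 6 ATPases were higher and 0 lower, and 5 of 11 non-ATPase subunits were higher and 1, Psmd3 (43.3 against 55.6 CPM, -0.36), lower. The largest folds were those of Psmd8 (364 against 136 CPM, 1.42), Psmc5 (221 against 133 CPM, 0.74), Psmd4, a ubiquitin receptor (230.1 against 141 CPM, 0.71), and Psmc4 (136 against 87.6 CPM, 0.64), and so was Psmf1 (33.4 against 15.7 CPM, 1.09). Of the chaperones Psmg2 (62.2 against 37.7 CPM, 0.72) and Psmg3 (46.1 against 28.5 CPM, 0.69) were higher and Psmd5 (16.9 against 24.4 CPM, -0.53) lower. In the core Psmb3 (527 against 359 CPM, 0.55) and Psma3 (541 against 372 CPM, 0.54) were higher and Psma4 (237 against 317 CPM, -0.42) lower. The small cap subunit gene Sem1 had 1470.4 against 519.9 CPM (1.50).

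**Figure D5:**
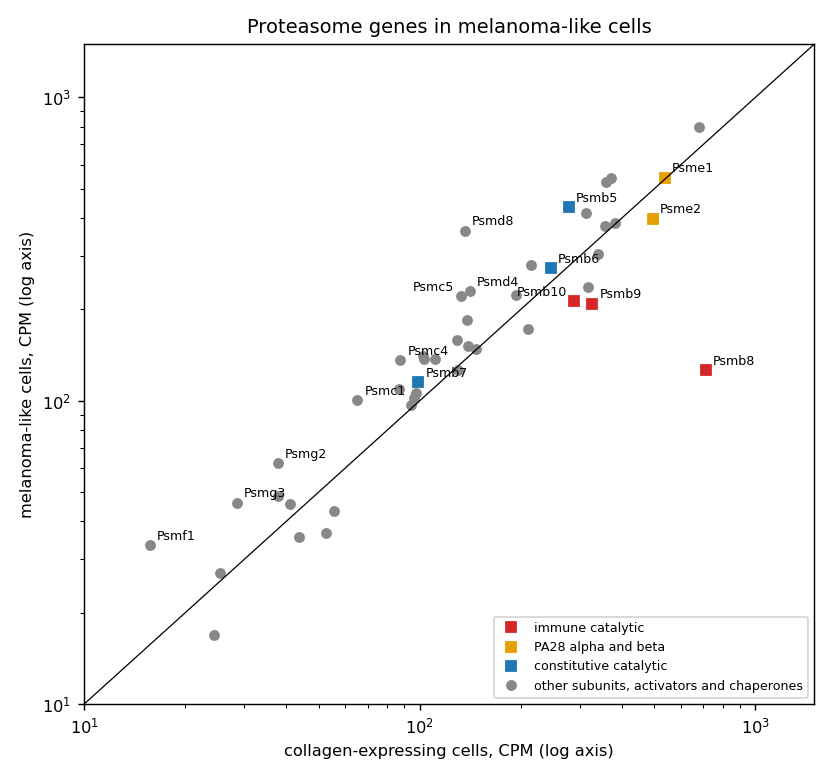
CPM of each proteasome gene in melanoma-like cells (vertical axis) against collagen-expressing cells (horizontal axis), libraries summed, on log axes, with the line of equal values. Psmb8 lies farthest below the line, at 126 against 711 CPM, and Psmd8 farthest above it, at 364 against 136 CPM.

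Of the MHC class I list 0 genes were higher and 11 lower in melanoma-like cells, with H2-K1 at 296 against 2273 CPM (-2.94) and Tapbp, a peptide loading factor, at 51.9 against 166 CPM (-1.67). Of the interferon signalling list 1 was higher and 14 were lower, against 34.3% and 48.2% of all genes. Immune-like cells, by comparison, had 1 proteasome gene higher and 6 lower than collagen-expressing cells (22.6% and 39.5% of all genes), with Psmb8 at 765 CPM, Psmb9 at 372 CPM and Psmb10 at 274 CPM. The double-negative library did not have the lowest ratio in these 2 classes. The ratio there was 0.693 (0.667 to 0.720) in melanoma-like cells, against 0.585 (0.530 to 0.646) in tdTomato+ eGFP-neg and 0.630 (0.582 to 0.683) in tdTomato-neg eGFP+. In immune-like cells it was 2.45 (2.26 to 2.66) against 2.39 (2.25 to 2.55) and 2.41 (2.20 to 2.64). These intervals overlapped that of the double-negative library except in melanoma-like cells of tdTomato+ eGFP-neg.

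The spread of each gene was read over the 31 units of a library and a class with at least 50 cells. Psmb8 had the widest range among the subunits, 16.5-fold from 65.2 CPM in melanoma-like cells of tdTomato+ eGFP-neg to 1072 CPM in mesothelial-like cells of tdTomato-neg eGFP+. Psmb9 ranged 6.35-fold, from 97.0 to 616 CPM, and the inhibitor Psmf1 9.46-fold, from 3.58 to 33.9 CPM, at much lower levels. The lowest Psmb9 value (53.0 to 163) rests on 14 UMIs in 66 Inmt/Efhd1 cells of tdTomato-neg eGFP+. The lowest Psmf1 value comes from 59 matrix fibroblast-like cells of tdTomato+ eGFP+, so both ranges are uncertain. The 36 genes other than the catalytic subunits and the Psme activators, Psmf1 among them, had a median range of 2.41-fold, the narrowest being that of Psmc6, 1.61-fold.

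As a description over the same 31 units, which share libraries, depth and cell classes, the immune subunits with Psme1 and Psme2 had a median Pearson correlation of 0.79 among themselves over 10 pairs of log2 CPM. The constitutive 20S subunits had 0.59 among themselves and the 19S subunits 0.54, with 0.55 between these sets. The immune set had 0.40 with the constitutive 20S and 0.08 with the 19S subunits. Of 9947 genes with at least 1000 UMIs, those whose levels were most like the sum of Psmb8, Psmb9 and Psmb10 were Plaat3 (0.96), Gbp2, AI661453, H2-T22, Zbp1, Serpinb6b, Cd9, S100a4, H2-T10 and Ggct (0.92). Those most like the sum of Psmb5, Psmb6 and Psmb7 were Nme1 (0.93), Ppp1ca, Ddx39a, Rps27l, Txnl4a, Ssbp1, Snrpf, Banf1 and Eef1e1 (0.90). The lists had no gene in common.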

How the data were processed

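Single-cell RNA libraries (10x 3′ chemistry) of 4 sorted populations were used, 1 library each, so p-values could not be had. The deposited matrices hold UMI counts per gene and barcode that the authors made with Cell Ranger, which aligns with STAR. The submitters' processing notes name Cell Ranger 10.0.0, GRCm39 and Seurat 5.0, whereas the matrix headers name Cell Ranger 8.0.0. The counts were taken as deposited, without normalization. Reads from RNA of other cells in the droplets were not removed here.

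The study's limits on barcodes were applied (500 to 6000 genes, mitochondrial UMIs of 10% at most). Genes found in at least 3 cells were scaled to 10000 UMIs per cell and log-transformed, and 2000 variable genes, 25 of 50 principal components and 20 neighbours were used in Seurat 5.3.0 (R 4.3.3) to make 5 clusters and then, among collagen-expressing cells, 7 groups. The proteasome genes and those listed as proteasome partner, MHC class I, interferon signalling or sex-linked took no part in the clustering, while unlisted genes of these kinds could. Classes were named from marker lists. Scrublet (scanpy 1.11.5) called doublets in 0, 0, 6 and 0 cells of the libraries and so did not work. Doublets were kept, and removing the expected share, 0.8% per 1000 barcodes, was an alternative.

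UMIs were summed over cells of a library, a class or both (at least 50 cells) and divided by all UMIs of those cells. Intervals are exact Poisson for CPM and counting intervals for ratios and folds, at 95%, and cover counting error only. A gene needed 100 UMIs over both sides of a comparison, and a count of 0 was set to 0.5 UMIs in a fold. Classes are clusters of the same cells, so differences between them are descriptions. The fold calculation was tested on simulated data.

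Genes named in the text are the catalytic and Psme genes and, for each comparison, those past the fold with the largest sizes by role. Psma3 in the comparison of mesothelial-like cells was named after its value was seen. Some genes that this rule names are not reported here. The members and lists were chosen with earlier results of these data known. Promoters came from RefSeq tables on GRCm38.p6 and gave no coordinates for the counts. Figures were drawn with matplotlib 3.10.9, and other steps used Python 3.11.15, numpy 2.4.6, scipy 1.17.1 and pandas 2.3.3. The alternatives were other limits, clusterings, gene minimums and folds, thinning to 1000 UMIs, cells of either sex mark and leaving out libraries.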

Additional observations from a re-analysis of the deposited data

Results flagged for a closer look

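In tdTomato-neg eGFP+ cells the log2 difference of the immune to constitutive ratio from the double-negative library was -0.64 in the Inmt/Efhd1 cluster and positive in the other 6 classes, a difference that was not tested and rests on 66 cells.

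Psmb9 in the same population was above the double-negative cells by 0.31 in matrix fibroblast-like and 0.30 in Nebl/Cd55b cells and below them in the Inmt/Efhd1 cluster, at -0.82, where 14 UMIs were counted, and this difference was not tested.

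Psme4 in tdTomato+ eGFP+ cells was above the double-negative cells by 0.51 in Serpinb2/Ereg-high and 0.49 in cycling collagen-low cells but at -0.95 in mesothelial-like cells, on 10 UMIs. In tdTomato-neg eGFP+ cells Psme4 was at 0.25 in matrix fibroblast-like, 0.26 in Serpinb2/Ereg-high and 0.35 in cycling collagen-low cells and at -0.34 in mesothelial-like cells. Neither difference between classes was tested.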

How the results depend on the processing

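No paired analysis between populations was possible because each population is 1 library and no replicate numbers are shared. Differences between classes within libraries are values without a test, since classes are clusters of the same cells. For the 4 ratios and 4 counts of genes past the fold, 94 of 114 alternatives left the value within its interval or within 1.5 times and 20 moved it. Of the alternatives for the ratios 0 turned the direction, while a count has no direction that could turn. The ratio of mesothelial-like over matrix fibroblast-like cells (0.93) was 1.00 with the expected doublets removed, 1.03 in Xist-only cells and 0.98 in Y-only cells, and leaving out each library in turn gave 0.85 (without the double-negative library) to 0.94 for the ratio and 28 to 37 genes past the fold. Against the double-negative library, the ratio of tdTomato+ eGFP+ (0.38) was 0.24 after thinning, that of tdTomato+ eGFP-neg (0.31) was 0.28 in Xist-only cells and that of tdTomato-neg eGFP+ (0.32) was 0.34 in Y-only cells. Classes weighted equally, a setting chosen after seeing the data like that without the Inmt/Efhd1 cluster, gave ratios of 0.24, 0.29 and 0.16 in tdTomato+ eGFP-neg, tdTomato+ eGFP+ and tdTomato-neg eGFP+, and 2 genes past the fold in the last in place of 9. The equal weighting also left out cycling collagen-high and Inmt/Efhd1 cells, which did not have 50 cells in every library. Genes past the fold in tdTomato+ eGFP+ (5) were 10 by a mean over cells and 17 after thinning, those in tdTomato+ eGFP-neg (11) 7 in Xist-only and 20 in Y-only cells, and those in tdTomato-neg eGFP+ (9) 5 in Y-only cells. At a log2 fold of 0.5 the 3 counts were 0, 0 and 0, and that between mesothelial-like and matrix fibroblast-like cells (33) was 15, by construction. Of 423 alternatives for the 31 log2 values above the fold, 290 stayed, 130 moved and 3 turned, while smaller values, whose turns were not counted, also changed sign. In melanoma-like cells Psme4 (-0.53) was at 0.15 after thinning, and Psme2 (-0.31) at 0.01 in Xist-only and 0.05 in Y-only cells, each of these 2 sets under 50 cells. Apart from the fold threshold, the cause was not tested. The tdTomato+ eGFP+ library had 863 collagen-expressing cells, which limits its values within classes.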
